A study of Mus musculus with 16 samples.

Results

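The genes described here move calcium into and out of the cytosol or hold it in stores: channels of the plasma membrane, sensors and channels of store-operated entry, release channels, pumps, exchangers, calsequestrin and calmodulin. They were taken by gene symbol from the deposited table (the families Cacna1, Cacna2d, Cacnb, Trpc, Trpv, Trpm, Piezo, Stim, Orai, Itpr, Ryr, Casq, Atp2a, Atp2b, Atp2c, Slc8a and Calm, with Pln and Sln), if the table lists them as protein coding. This gave 73 of 54532 genes. The rule itself used no expression value, though the members were chosen with earlier results of these data known. The symbol rule also took Trpc4ap, a protein associated with a channel, and Trpc5os, which are not channels themselves.

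RNA had been sequenced from aortas of male Apoe-/- mice of strain C57BL/6j, 8 to 12 weeks old, whose adventitia, the outer layer of the wall, had been removed. All of the mice lacked apolipoprotein E, controls included, and carried an osmotic pump for 7 days, which gave either saline (0.9% sodium chloride, 8 libraries) or angiotensin II (Ang II, 1000 ng per kg per min, 8 libraries). The labels do not state which mouse stands behind a sample, so a p-value here reflects only how much these 16 samples differ among themselves. Expression is given as FPKM, fragments scaled to transcript length and library reads, which allows levels of different genes to be compared per length.

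Arterial smooth muscle contracts when cytosolic calcium rises and calmodulin, the calcium sensor of the cell, switches on myosin light chain kinase. Calcium enters through voltage-gated, TRP, mechanosensitive Piezo and store-operated Orai channels, and leaves the sarcoplasmic reticulum through IP3 and ryanodine receptors. SERCA pumps (Atp2a genes) refill that store, PMCA pumps (Atp2b genes) and sodium-calcium exchangers (Slc8a genes) push calcium out of the cell, and SPCA pumps (Atp2c genes) load the Golgi. Angiotensin II acts on a receptor coupled to Gq, which makes IP3 through phospholipase C.

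The libraries held 14606864 to 17590088 reads with saline and 15779125 to 19988730 with Ang II, so 1 read in a transcript of 1 kilobase was worth 0.05 to 0.0685 FPKM. Saline 8, Saline 7 and Saline 2 were set off from the rest by the first principal component over all tested genes (46.9% of the variance, scores of -108.8, -67.6 and -47.5, against -9.5 or above in the other 13 libraries). Smooth muscle markers were present in every library, with summed levels of 9716 to 16234 FPKM with saline and 7026 to 11640 FPKM with Ang II, and 5 of 12 were lower with Ang II and 0 higher, Myh11 among the former (1561 ± 275 to 852 ± 169 FPKM, SD, n = 8 per group). Of 13 macrophage and monocyte markers 4 were higher and 0 lower (sums of 27.0 to 731 FPKM against 74.1 to 777). White adipocyte markers were lower in 4 of 12 and higher in 0 (183 to 668 against 105 to 297). Endothelial markers were lower in 2 of 10 and higher in 0 (649 to 1658 against 251 to 1454). Among 10 fibroblast markers 1 was higher and 1 lower. Their sums rose without overlap (196 to 378 against 522 to 1023), but their median log2 fold change was -0.21, so most of them did not share this rise. Of 9 skeletal muscle markers 2 were lower and 0 higher (19.8 to 87.7 against 8.37 to 71.0), of 5 cardiac markers 1 was lower and 0 higher (26.1 to 79.2 against 23.3 to 50.7), of 6 brown adipocyte markers 2 were lower and 0 higher (17.0 to 215, highest in Saline 8, against 7.11 to 33.4), of 6 nerve markers 1 was higher and 1 lower (144 to 242 against 254 to 360, with no overlap), and of 3 T and B cell markers none passed the test. Of all tested genes 9.54% were higher and 24.9% lower. The lower counts of the endothelial, skeletal muscle and cardiac markers did not exceed that share. The part of these cell types in the results below was not tested. A marker score, the mean scaled level of a list of markers, comes from the same bulk libraries and can itself differ between the groups. In a bulk sample, fewer cells of a type and less RNA per cell cannot be told apart.

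With Ang II the pump Atp2b1 and the channel gene Orai2 rose, and the pump Atp2a3, the channel Trpm4, the store sensor Stim1 and the pump inhibitor Pln fell. The L-type channel pore Cacna1c, the pump Atp2a2 and the release channels Itpr1 and Ryr2 did not pass the test, though Atp2a2 and Itpr1 passed, lower with Ang II, without Saline 2, Saline 7 and Saline 8. Of the 73 genes, 42 had a mean of at least 0.5 FPKM and were tested with limma on log2(FPKM + 1). At an adjusted p under 0.05 (Benjamini-Hochberg over 15007 genes), 4 were higher with Ang II: Atp2b1, Orai2, Piezo1 and Atp2c1. Another 13 were lower, among them Itpr2, Atp2b4, Atp2b2, Pln, Atp2a3, Trpm4, Trpv2, Trpv4, Calm3, Stim1, Cacna2d3 and Cacnb1. Together this was 40.5% of those tested, beside 34.5% of all tested genes. By direction, 9.52% of the calcium genes were higher, beside 9.54% of all genes, and 31.0% were lower, beside 24.9%. In this main fit the shares were thus near those of the rest of the genome.

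The median log2 fold change was -0.19 for the 42 genes and -0.12 for all genes tested. With libraries rescaled by median ratios, which put the median of all genes at -0.01, the counts were 5 higher and 8 lower. Over all 15007 genes they were then 2236 and 2114. None of the 17 calcium genes past the threshold changed sign. Without Saline 2, Saline 7 and Saline 8 the counts were 2 higher and 18 lower of the 42. Over all 15007 genes they were then 1200 and 3946. In that setting the share that was lower was larger among the calcium genes, a difference that was not tested. The groups did not overlap for 1 gene above (Orai2) and 4 below (Atp2a3, Trpm4 and Trpv2 among them), beside 2.74% and 5.62% of all tested genes (8.36% in either direction). Of the genes past the threshold, Orai2 and Atp2b1 (higher) and Atp2a3, Atp2b2, Trpm4, Pln and Stim1 (lower) passed in each of the 30 alternative analyses run.

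**Figure D1:**
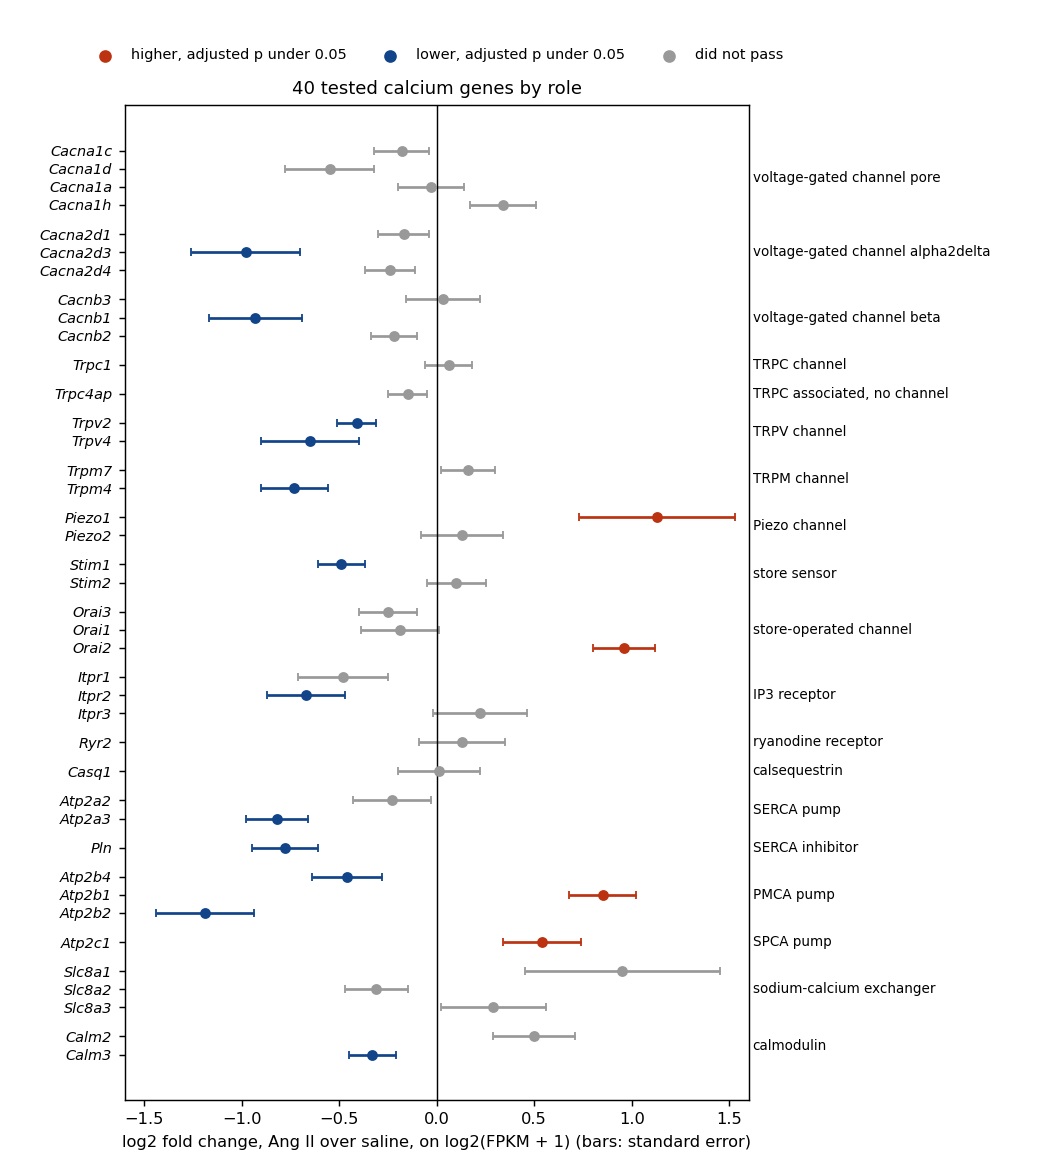
Log2 fold change of 40 tested calcium genes, Ang II over saline on log2(FPKM + 1), grouped by role, with bars for the standard error (8 libraries per group). Red points (4 genes) were higher and blue points (12 genes) lower at a limma adjusted p under 0.05, and grey points did not pass.

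The pore of the L-type channel, the main voltage-gated calcium entry of arterial muscle, did not pass the test. The level of Cacna1c ranged from 15.3 to 28.4 FPKM with saline (median 23.8) and from 13.2 to 23.0 FPKM with Ang II (median 19.9). The groups overlapped widely (limma log2 fold change -0.18, SE 0.14, adjusted p = 0.320). The T-type pore Cacna1h ranged from 1.08 to 2.64 FPKM with saline (median 1.67) and from 1.40 to 3.52 FPKM with Ang II (median 2.83), and it did not pass (limma log2 fold change 0.34, SE 0.17, adjusted p = 0.135). The second L-type pore, Cacna1d, ranged from 1.16 to 6.60 FPKM with saline (median 5.30) and from 2.11 to 4.10 FPKM with Ang II (median 2.49), and it did not pass either (limma log2 fold change -0.55, SE 0.23, adjusted p = 0.0682). Without Saline 2, Saline 7 and Saline 8 the value for Cacna1d was -0.84 (SE 0.14, limma adjusted p = 0.000324), and it also passed without Saline 7, without Saline 8, without both, and with limma sample weights (-0.87, adjusted p = 6.54e-05). Cacna1a, the P/Q-type pore best known from neurons, had means of 2.71 and 2.72 FPKM, saline first, and did not pass.

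The auxiliary subunits set how many channels reach the membrane and how they gate. For Cacna2d1 the values ranged from 35.4 to 61.4 FPKM with saline (median 49.6) and from 32.9 to 54.8 FPKM with Ang II (median 41.7). The groups overlapped and it did not pass (limma log2 fold change -0.17, SE 0.13, adjusted p = 0.297), though without Saline 2, Saline 7 and Saline 8 it did (-0.35, SE 0.11, adjusted p = 0.0186). Cacna2d4 had means of 0.870 and 0.585 FPKM and did not pass. Its relative Cacna2d3 ranged from 1.10 to 6.86 FPKM with saline (median 4.51) and from 0.607 to 2.60 FPKM with Ang II (median 1.37). The Ang II libraries filled the lower part of the saline range and went below it in 3 cases (limma log2 fold change -0.98, SE 0.28, adjusted p = 0.0137). The call was lost with the Wilcoxon test (adjusted p = 0.0573) and when the adipocyte score was added to the fit (-0.94, SE 0.34, adjusted p = 0.0617). Among the beta subunits, Cacnb2 ranged from 9.32 to 13.2 FPKM with saline (median 11.0) and from 7.07 to 13.1 FPKM with Ang II (median 9.58) and did not pass (limma log2 fold change -0.22, SE 0.12, adjusted p = 0.172), and Cacnb3 had means of 45.9 and 46.1 FPKM.

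Cacnb1, the beta subunit best known from skeletal muscle, fell. Its level ranged from 11.2 to 45.4 FPKM with saline (median 13.1) and from 6.67 to 13.8 FPKM with Ang II (median 8.10). The highest 3 saline values were those of Saline 2 (24.3), Saline 7 (23.7) and Saline 8 (45.4), and 7 of 8 Ang II libraries stood under every saline library (limma log2 fold change -0.93, SE 0.24, adjusted p = 0.00726). Without these 3 saline libraries the log2 fold change was -0.48 (SE 0.13, adjusted p = 0.0101). The skeletal muscle marker sum was highest in Saline 2 and in Ang II 5, where Cacnb1 stood at 8.83 FPKM. With the macrophage score as a covariate the call was lost (-0.81, SE 0.29, adjusted p = 0.0562), and likewise with the adipocyte score.

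TRP channels let in cations after receptor, lipid or heat stimuli. Trpm4, Trpv2 and Trpv4 fell, and none of the TRP genes tested was higher. Trpc1, a widely expressed member of the TRPC family, ranged from 4.19 to 8.07 FPKM with saline (median 6.96) and from 6.02 to 8.69 FPKM with Ang II (median 6.76) and did not pass (limma log2 fold change 0.06, SE 0.12, adjusted p = 0.727), and Trpc6 was close to 0 in all libraries (up to 0.129 FPKM with saline and 0.107 with Ang II). Trpc4ap, the associated protein, had means of 64.6 and 57.4 FPKM and did not pass.

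Trpm4 ranged from 31.2 to 77.1 FPKM with saline (median 36.0) and from 15.4 to 27.7 FPKM with Ang II (median 25.3). Here too the groups did not overlap, although Saline 8 stood far above the other saline libraries (limma log2 fold change -0.73, SE 0.17, adjusted p = 0.00298). TRPM4 is a calcium-activated channel for monovalent cations that depolarizes arterial muscle. Without Saline 2, Saline 7 and Saline 8 the log2 fold change of its gene was -0.55 (SE 0.12, adjusted p = 0.00356). Trpm7, a channel fused to a kinase, ranged from 25.6 to 57.9 FPKM with saline (median 46.9) and from 41.3 to 61.4 FPKM with Ang II (median 47.7) and did not pass (limma log2 fold change 0.16, SE 0.14, adjusted p = 0.401). The ratio of Trpm4 to Trpm7 within a library ranged from 0.640 to 2.35 with saline (median 0.798) and from 0.333 to 0.645 with Ang II (median 0.545). It was below every saline value in 7 of 8 Ang II libraries (log2 difference -0.92, exact permutation p = 0.000311, adjusted p = 0.00131). This pair, like those of the ratios below, was chosen with earlier results of these data known.

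The level of Trpv2 ranged from 12.9 to 19.8 FPKM with saline (median 15.2) and from 9.35 to 12.5 FPKM with Ang II (median 12.0). TRPV2 is a cation channel that responds to stretch and heat, and the ranges of its gene did not meet (limma log2 fold change -0.41, SE 0.10, adjusted p = 0.00448). After median ratio scaling the value was -0.28, SE 0.11, adjusted p = 0.0555, and with voom on recovered reads it did not pass either (-0.29, SE 0.11, adjusted p = 0.0600). Trpv4, a channel opened by swelling and flow that endothelium and smooth muscle both express, ranged from 6.86 to 21.6 FPKM with saline (median 11.3) and from 3.47 to 13.8 FPKM with Ang II (median 7.56). Saline 7 and Saline 8 were the highest of all libraries, and 3 Ang II libraries stood under every saline library (limma log2 fold change -0.65, SE 0.25, adjusted p = 0.0474). This call held in 8 of 30 alternatives and was lost without Saline 2, Saline 7 and Saline 8 (-0.43, SE 0.25, adjusted p = 0.193). Of the endothelial markers 2 of 10 were lower, with a median log2 fold change of -0.10 over the 10, beside -0.12 for all genes. The part of endothelium in the level of Trpv4 was not tested.

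**Figure D2:**
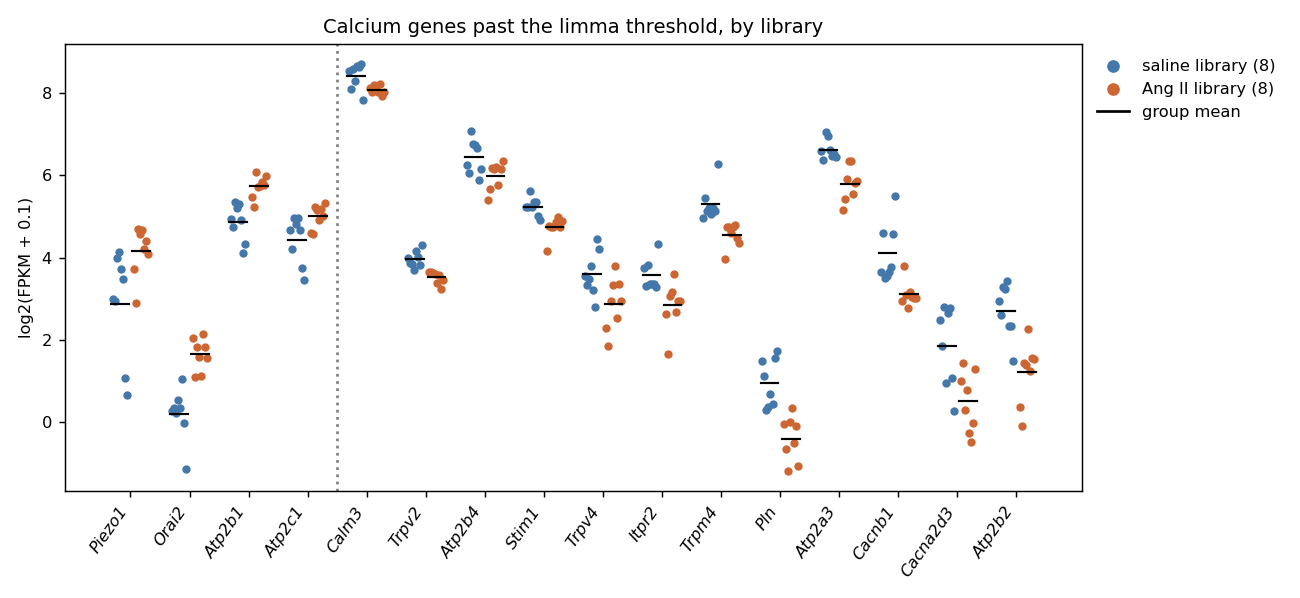
Level of 16 calcium genes past the limma threshold, as log2(FPKM + 0.1), with 1 point per library (8 saline, 8 Ang II) and a line at the group mean. The 4 genes left of the dotted line were higher and the 12 to its right lower with Ang II, and Orai2, Trpm4, Trpv2 and Atp2a3 show no overlap between the groups.

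Piezo1, the stretch-gated channel of vessel walls, was higher with Ang II, and this call held in 15 of 30 alternatives. For Piezo1 the values ranged from 1.47 to 17.5 FPKM with saline (median 9.42) and from 7.31 to 25.8 FPKM with Ang II (median 19.7). Saline 7 and Saline 8 were lowest (2.00 and 1.47 FPKM), and 5 Ang II libraries exceeded every saline library (limma log2 fold change 1.13, SE 0.40, adjusted p = 0.0345). Without Saline 2, Saline 7 and Saline 8 the log2 fold change was 0.47 (SE 0.26, adjusted p = 0.183). The model Ctu2 on the other strand covers 24.6% of the exon bases of Piezo1, and it is not stated whether counting used strand, so part of its level is uncertain. Piezo2 ranged from 0.538 to 2.60 FPKM with saline (median 1.43) and from 0.886 to 2.88 FPKM with Ang II (median 1.58) and did not pass (limma log2 fold change 0.13, SE 0.21, adjusted p = 0.668).

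In store-operated entry, 1 of 2 sensors fell and 1 of 3 channel genes rose. STIM1, the sensor that reports an empty store to Orai channels, is encoded by Stim1 (chr7:102267806-102437319, plus strand). Stim1 ranged from 30.1 to 49.3 FPKM with saline (median 37.4) and from 17.9 to 31.6 FPKM with Ang II (median 26.9). Only 1 Ang II library reached into the saline range (limma log2 fold change -0.49, SE 0.12, adjusted p = 0.00410). Stim2, the second sensor, ranged from 6.53 to 13.1 FPKM with saline (median 10.4) and from 8.65 to 12.7 FPKM with Ang II (median 9.98) and did not pass (limma log2 fold change 0.10, SE 0.15, adjusted p = 0.598). The ratio of Stim2 to Stim1 ranged from 0.192 to 0.344 with saline (median 0.236) and from 0.321 to 0.552 with Ang II (median 0.377), with 7 of 8 Ang II libraries above every saline library (log2 difference 0.62, exact permutation p = 0.000466, adjusted p = 0.00163).

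Orai2, a channel subunit that can join Orai1 and dampen its current, rose. The level of Orai2 ranged from 0.346 to 1.96 FPKM with saline (median 1.12) and from 2.01 to 4.27 FPKM with Ang II (median 3.16). All Ang II libraries lay above all saline libraries, and Saline 8 was the lowest of the 16 (limma log2 fold change 0.96, SE 0.16, adjusted p = 0.000243). The size depends on the scale: with a pseudocount of 0.1 it was 1.45 (SE 0.26) and with voom on recovered reads 1.67 (SE 0.25). Its level stayed below those of its relatives, and the gene lies at chr5:136147459-136170713 on the minus strand. Orai1, the main pore of store-operated entry, ranged from 7.65 to 23.5 FPKM with saline (median 16.3) and from 7.82 to 18.8 FPKM with Ang II (median 14.1), and it did not pass (limma log2 fold change -0.19, SE 0.20, adjusted p = 0.474). Orai3 ranged from 12.7 to 28.8 FPKM with saline (median 26.4) and from 15.9 to 22.1 FPKM with Ang II (median 19.6) and did not pass either (limma log2 fold change -0.25, SE 0.15, adjusted p = 0.215). Without Saline 2, Saline 7 and Saline 8 Orai3 did (-0.41, SE 0.11, adjusted p = 0.0121). The ratio of Orai2 to Orai1 ranged from 0.0412 to 0.147 with saline (median 0.0707) and from 0.114 to 0.388 with Ang II (median 0.254) and was above every saline value in 7 of 8 Ang II libraries (log2 difference 1.66, exact permutation p = 0.000311, adjusted p = 0.00131). Orai2 is also a gene of leukocytes, and 4 of 13 macrophage markers were higher with Ang II. With the macrophage score as a covariate its log2 fold change was 0.80 (SE 0.18, limma adjusted p = 0.00488). The part of leukocytes in the rise of Orai2 was not tested.

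The sequences before the start sites of the sensors and of 2 channel genes are shown because each pair shifted in its ratio. They are from RefSeq (GRCm38.p6), 5′ to 3′ on the strand of the gene, limited to bases before any annotated exon, with CpG dinucleotides in capitals. The Orai2 stretch (chr5:136170714-136170906, minus strand, 193 bases) held 10 of them and the Orai1 stretch (chr5:123014824-123014994, plus strand, 171 bases) 17. The Stim1 stretch (chr7:102267569-102267805, plus strand, 237 bases) held 30 and the Stim2 stretch (chr5:53998273-53998498, plus strand, 226 bases) 27.
Orai2: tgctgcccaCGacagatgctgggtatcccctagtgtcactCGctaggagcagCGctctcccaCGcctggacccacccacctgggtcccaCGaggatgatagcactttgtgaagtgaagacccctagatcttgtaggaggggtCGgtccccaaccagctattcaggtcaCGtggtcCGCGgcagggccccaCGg
Orai1: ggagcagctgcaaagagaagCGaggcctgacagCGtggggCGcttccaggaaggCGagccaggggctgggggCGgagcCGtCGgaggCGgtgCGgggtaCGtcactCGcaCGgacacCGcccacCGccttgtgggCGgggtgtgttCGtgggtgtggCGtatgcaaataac
Stim1: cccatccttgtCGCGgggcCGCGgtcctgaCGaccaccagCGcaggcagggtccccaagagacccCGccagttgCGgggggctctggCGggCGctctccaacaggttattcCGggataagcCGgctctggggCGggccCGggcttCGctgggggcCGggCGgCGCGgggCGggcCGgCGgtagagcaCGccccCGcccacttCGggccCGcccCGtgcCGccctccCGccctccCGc
Stim2: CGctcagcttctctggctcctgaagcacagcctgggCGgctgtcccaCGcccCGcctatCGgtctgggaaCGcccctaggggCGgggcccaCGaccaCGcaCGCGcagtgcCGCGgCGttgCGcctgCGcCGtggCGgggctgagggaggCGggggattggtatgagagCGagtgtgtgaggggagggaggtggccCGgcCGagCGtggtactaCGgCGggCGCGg

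RefSeq promoters were found for 32 of the 42 tested genes (44 windows of 250 bases before a start). The median number of CpG dinucleotides was 16.5 in them and 6.00 in all 32851 promoters of the table. The latter were not limited to genes that passed the expression filter, so the sets compared here differ in that too. TATAAA, searched on both strands, was in 3 of the 44 windows (6.82%; Cacna1d, Piezo1 and Pln) and in 12.4% of all promoters. The CArG box, the element bound by serum response factor, was in 0 of 44 and in 1.47% of all, and the cAMP response element TGACGTCA, the same on both strands, in 0 of 44 and 1.55% of all. With shares this low over all promoters, 0 of 44 does not show that either element is lacking. Some genes have more than 1 window, so the 44 are not independent. These are matches of letters in a window, and overlaps between motifs were not counted.

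Release channels of the store had 1 call. Itpr1, the most abundant IP3 receptor gene per length in these libraries, ranged from 50.9 to 161 FPKM with saline (median 103) and from 41.7 to 98.6 FPKM with Ang II (median 71.8) and did not pass (limma log2 fold change -0.48, SE 0.23, adjusted p = 0.116). Saline 2, Saline 7 and Saline 8 were the 3 lowest saline libraries, and without them the value was -0.87 (SE 0.18, adjusted p = 0.00196). For Itpr2 the values ranged from 9.66 to 20.1 FPKM with saline (median 10.2) and from 3.03 to 12.1 FPKM with Ang II (median 7.60). Of the Ang II libraries 7 stood under every saline library, and Ang II 5 stood within their range (limma log2 fold change -0.67, SE 0.20, adjusted p = 0.0165). That call was lost after median ratio scaling (-0.54, SE 0.21, adjusted p = 0.0585) and with the macrophage score as a covariate (-0.50, SE 0.23, adjusted p = 0.132). Itpr3 had means of 4.10 and 4.93 FPKM, and its ratio to Itpr1 was higher with Ang II (log2 difference 0.75, exact permutation p = 0.00513, adjusted p = 0.0108). That ratio ranged from 0.0298 to 0.0544 with saline (median 0.0413) and from 0.0391 to 0.113 with Ang II (median 0.0796).

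Ryr2, the ryanodine receptor found here, ranged from 7.02 to 25.4 FPKM with saline (median 14.4) and from 9.96 to 23.6 FPKM with Ang II (median 15.7) and did not pass (limma log2 fold change 0.13, SE 0.22, adjusted p = 0.674). Its ratio to Itpr1 ranged from 0.0918 to 0.229 with saline (median 0.158) and from 0.195 to 0.313 with Ang II (median 0.240), with 5 of 8 Ang II libraries above every saline library (log2 difference 0.62, exact permutation p = 0.00233, adjusted p = 0.00612). The other ryanodine receptor genes were near 0, with means of 0.0210 and 0.0320 FPKM for Ryr1 and 0.101 and 0.0645 FPKM for Ryr3. Casq1, a calcium buffer inside the store that is best known from fast skeletal muscle, was at 76.7 ± 24.0 FPKM in saline libraries and 77.1 ± 21.8 FPKM in Ang II libraries (SD, n = 8 per group). The skeletal muscle marker sum was highest in Saline 2 (87.7 FPKM) and Ang II 5 (71.0 FPKM), where Casq1 stood at 48.7 and 89.7 FPKM, beside group medians of 76.4 and 82.6, and the part of skeletal muscle in its level was not tested.

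Casq2, the calsequestrin best known from the heart, was under the filter for the main test but separated the groups. It was at 0 in 3 saline libraries and at most 0.0962 FPKM in the others (median 0.0415 over the 8), and ran from 0.337 to 1.30 FPKM with Ang II (median 0.518). All Ang II libraries lay above all saline libraries. That is 8 reads over the saline libraries and 127 over the Ang II libraries. In the limma fit of 31423 genes without a filter the log2 fold change was 0.62 (SE 0.09, adjusted p = 0.000360). Like Cacna2d2 below, it was picked out after its values were seen. Of the 5 cardiac markers tested 0 were higher and 1 was lower, and Myl7, Nppa, Nppb and Nkx2-5 were under the filter. The cardiac marker sums ran from 26.1 to 79.2 FPKM with saline and from 23.3 to 50.7 FPKM with Ang II. The part of cardiac cells in the level of Casq2 was not tested.

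Refilling of the store rests on SERCA pumps. Atp2a2, the main SERCA gene of muscle, ranged from 115 to 347 FPKM with saline (median 206) and from 126 to 229 FPKM with Ang II (median 176) and did not pass (limma log2 fold change -0.23, SE 0.20, adjusted p = 0.395). With Saline 2, Saline 7 and Saline 8 left out it did (-0.57, SE 0.16, adjusted p = 0.0106). Atp2a3 ranged from 82.4 to 134 FPKM with saline (median 93.9) and from 35.5 to 81.2 FPKM with Ang II (median 57.3). All Ang II libraries lay below all saline libraries (limma log2 fold change -0.82, SE 0.16, adjusted p = 0.00114). SERCA3, the protein of Atp2a3, has a low affinity for calcium and is known from endothelium, platelets and other cells outside muscle, and the gene lies at chr11:72961169-72993044 on the plus strand. Its share of the summed SERCA FPKM had a median of 34.6% with saline and 23.1% with Ang II, and ranges of 22.0% to 43.4% and 20.2% to 31.9% that overlapped. The ratio of Atp2a3 to Atp2a2 was lower with Ang II (log2 difference -0.60, exact permutation p = 0.0132, adjusted p = 0.0252). It passed in 16 of 20 alternatives. With the replicate block it did not (exact sign-flip test on differences of same-numbered libraries, adjusted p = 0.0757). The call was also lost without Saline 8 and without Saline 7 and Saline 8. Without Saline 2, Saline 7 and Saline 8 the log2 difference was -0.36 (exact permutation test, adjusted p = 0.153).

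The level of Pln ranged from 1.12 to 3.19 FPKM with saline (median 1.78) and from 0.334 to 1.17 FPKM with Ang II (median 0.716). Phospholamban, its protein, inhibits SERCA until it is phosphorylated. Of the Ang II libraries 7 stood under every saline library, and Saline 2, Saline 7, Saline 8 and Saline 1 were the highest (limma log2 fold change -0.78, SE 0.17, adjusted p = 0.00198). With a pseudocount of 0.1 the log2 fold change of Pln was -1.37 and with voom on recovered reads -1.30. Models on the other strand, Cep85l and Gm47644, cover 64.7% of its exon bases, so its level is uncertain. Sarcolipin (Sln), another SERCA inhibitor, was at 0 in 6 saline and 7 Ang II libraries and was not tested.

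The plasma membrane pumps shifted against each other. Atp2b1, the PMCA found in most tissues, rose while Atp2b4, the form with the most transcript in saline libraries, fell, and the sum of the family had medians of 125 and 127 FPKM, saline first. For Atp2b1 the values ranged from 17.2 to 40.8 FPKM with saline (median 30.3) and from 37.7 to 68.3 FPKM with Ang II (median 54.2). Here 7 of 8 Ang II libraries exceeded every saline library (limma log2 fold change 0.85, SE 0.17, adjusted p = 0.00128). Atp2b4 ranged from 59.6 to 135 FPKM with saline (median 88.8) and from 42.3 to 81.3 FPKM with Ang II (median 71.0). The groups overlapped, with 3 Ang II libraries below every saline library (limma log2 fold change -0.46, SE 0.18, adjusted p = 0.0483). This last call held in 12 of 30 alternatives and was lost after median ratio scaling (-0.32, SE 0.16, adjusted p = 0.144), and without Saline 2, Saline 7 and Saline 8 the value was -0.71 (adjusted p = 0.00379).

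Within a library, scaling cancels. The ratio of Atp2b1 to Atp2b4 ranged from 0.283 to 0.399 with saline (median 0.320) and from 0.728 to 1.06 with Ang II (median 0.776). Every Ang II library exceeded every saline library (log2 difference 1.34, exact permutation p = 0.000155, adjusted p = 0.00109), which is the smallest p that 12870 assignments of 8 and 8 can give. Atp2b1 nonetheless stayed under Atp2b4 in 6 of the 8 Ang II libraries. Over the 20 alternatives the log2 difference ran from 1.27 to 1.38. Atp2b1 made up 21.1% to 26.7% of the summed PMCA FPKM with saline (median 23.0%) and 40.6% to 50.7% with Ang II (median 42.8%), and Atp2b4 went from a median of 71.6% to 55.2%. Atp2b2, the fast PMCA known from hair cells and neurons, ranged from 2.68 to 10.6 FPKM with saline (median 6.79) and from 0.822 to 4.70 FPKM with Ang II (median 2.54). Of the saline libraries, Saline 8 alone lay below the highest Ang II value, and 5 Ang II libraries stood under every saline library (limma log2 fold change -1.19, SE 0.25, adjusted p = 0.00168). Atp2b3 was close to 0.

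**Figure D3:**
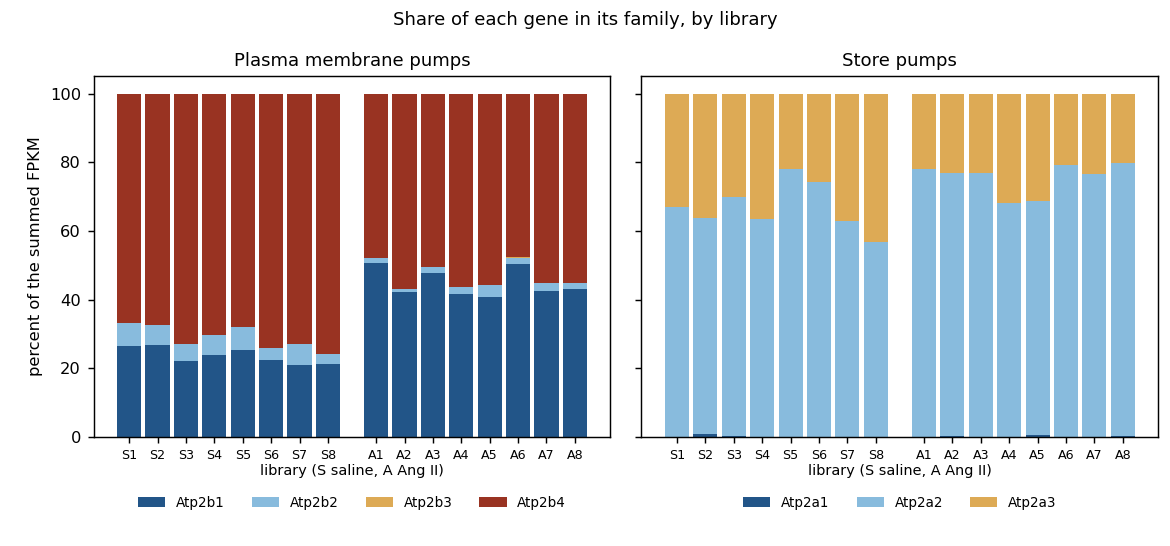
Share of each gene in the summed FPKM of its family, 1 bar per library (S1 to S8 saline, A1 to A8 Ang II), for PMCA and SERCA pumps. Atp2b1 held 21.1% to 26.7% of the PMCA sum with saline and 40.6% to 50.7% with Ang II.

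The mean of the sodium-calcium exchanger Slc8a1 depended on 3 saline libraries. The level of Slc8a1 ranged from 0.139 to 11.3 FPKM with saline (median 6.08) and from 3.30 to 11.8 FPKM with Ang II (median 9.36). Saline 2 (1.27), Saline 7 (0.30) and Saline 8 (0.139) were the 3 lowest of 16, whereas the other saline libraries ran from 4.61 to 11.3 FPKM, within the range of the Ang II libraries (limma log2 fold change 0.95, SE 0.50, adjusted p = 0.145). Without the 3 the log2 fold change was -0.06 (SE 0.26, adjusted p = 0.883). The ratio of Slc8a1 to Atp2b4 passed with them (log2 difference 1.94, exact permutation p = 0.00186, adjusted p = 0.00559), and without them it was 0.65 (exact permutation test, adjusted p = 0.0312). Slc8a2 and Slc8a3 had means of 7.92 and 6.24 FPKM and of 2.23 and 2.83 FPKM, and neither passed.

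Atp2c1, the SPCA pump that supplies calcium and manganese to the Golgi, was called higher. For Atp2c1 the values ranged from 10.9 to 31.3 FPKM with saline (median 25.3) and from 23.9 to 40.4 FPKM with Ang II (median 33.8). Of the Ang II libraries 5 exceeded every saline library, and Saline 2, Saline 7 and Saline 8 were the lowest of 16 (limma log2 fold change 0.54, SE 0.20, adjusted p = 0.0457). Without these 3 the value was 0.18 (SE 0.13, adjusted p = 0.287), and the fit with replicate numbers as blocks gave an adjusted p of 0.0588. The ratio of Atp2c1 to Atp2a2 ranged from 0.0868 to 0.130 with saline (median 0.10) and from 0.167 to 0.206 with Ang II (median 0.183), and every Ang II library exceeded every saline library (log2 difference 0.79, exact permutation p = 0.000155, adjusted p = 0.00109). The ratio also passed with Saline 2, Saline 7 and Saline 8 left out (0.76, exact permutation test, adjusted p = 0.00408). Aste1 on the other strand covers 18.9% of the exon bases of Atp2c1.

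**Figure D4:**
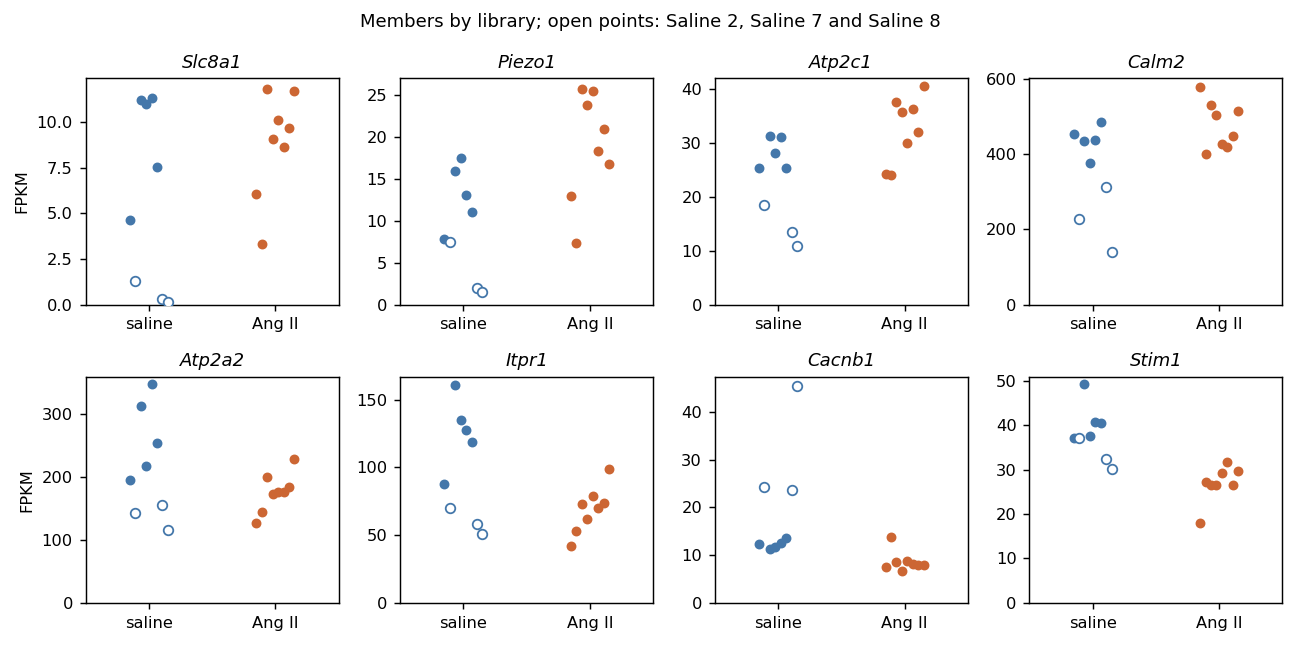
FPKM of 8 calcium genes in each of 16 libraries, with open points for Saline 2, Saline 7 and Saline 8. These 3 are the lowest saline libraries for Slc8a1, Piezo1, Atp2c1, Calm2, Atp2a2 and Itpr1, and the highest for Cacnb1, at 23.7 to 45.4 FPKM against 11.2 to 13.6.

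Calmodulin is made as the same protein from several genes. Calm3 ranged from 227 to 418 FPKM with saline (median 377) and from 246 to 298 FPKM with Ang II (median 272). All Ang II libraries lay below 6 of the saline libraries, Saline 2 stood among them and Saline 8 below them (limma log2 fold change -0.33, SE 0.12, adjusted p = 0.0442), and the call held in 11 of 30 alternatives, the replicate block not among them (adjusted p = 0.0601). Calm2 ranged from 141 to 485 FPKM with saline (median 407) and from 402 to 580 FPKM with Ang II (median 477) and did not pass (limma log2 fold change 0.50, SE 0.21, adjusted p = 0.0779). It passed in 3 of 30 alternatives, those that rescale the libraries: quantile normalization, voom and median ratio scaling (0.64, SE 0.20, adjusted p = 0.0243). The coding sequences of calmodulin genes are near-identical, so counting may have split reads between them.

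In all, 26 pairs of calcium genes were listed with earlier results of these data known, and 21 could be tested. An exact two-sided permutation test, with adjustment over the 21, was passed by 13 ratios. Several pairs set a gene past the limma threshold against one that did not pass. Such ratios partly restate the changes of single genes. The Ang II libraries had the higher ratio in 9 and the lower in 4. In each of 20 alternatives 10 kept an adjusted p under 0.05, among them Atp2b1 to Atp2b4, Atp2c1 to Atp2a2, Orai2 to Orai1, Stim2 to Stim1, Trpm4 to Trpm7, Ryr2 and Itpr3 to Itpr1, and Slc8a1 to Atp2b4. Ratios between subunits of the L-type channel did not pass: the ratio of Cacna2d1 to Cacna1c differed by 0.01 (exact permutation p = 0.946) and that of Cacnb2 to Cacna1c by -0.06 (exact permutation p = 0.622). In Cacna1h to Cacna1c the call (log2 difference 0.66, exact permutation test, adjusted p = 0.0296) held in 13 of 20 alternatives, and in Pln to Atp2a2 (log2 difference -1.13, exact permutation test, adjusted p = 0.0447) in 7. Ratios that share a gene are not independent of each other.

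**Figure D5:**
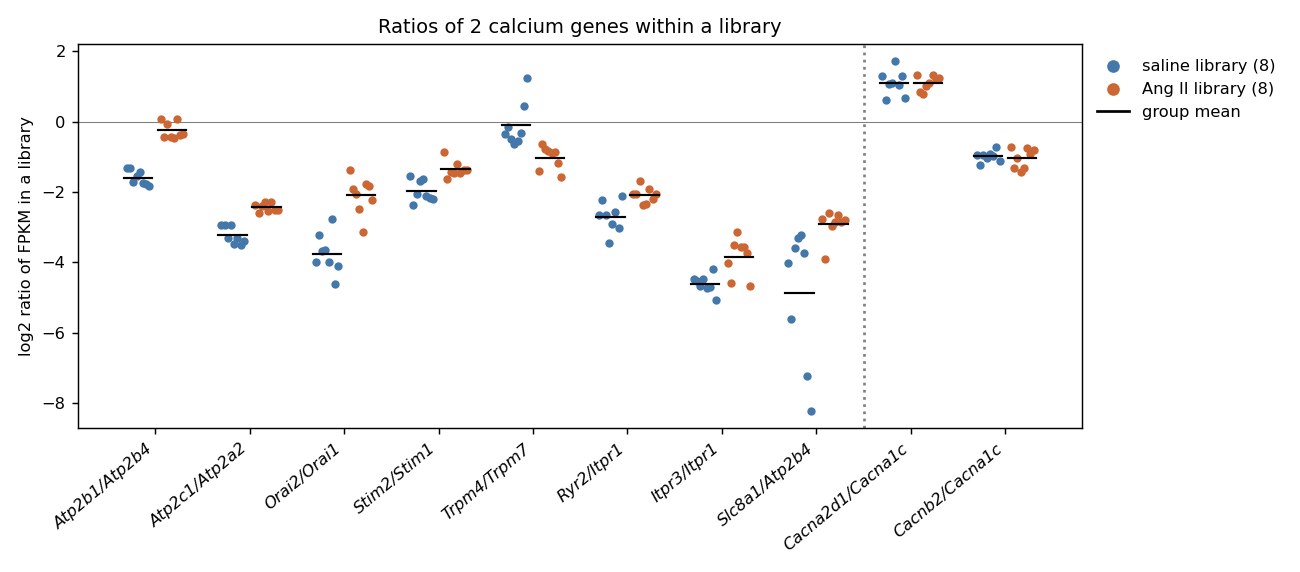
Log2 ratio of 2 calcium genes within each library (pseudocount 0.1), 8 saline and 8 Ang II libraries, with a line at the group mean. The 8 ratios left of the dotted line passed in each alternative run, and the 2 to its right, between L-type channel subunits, overlap between the groups.

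Other genes of calcium signalling were read from 5 lists. Of 85 that passed the filter 11 were higher (12.9%, beside 9.54% of all genes) and 21 lower (24.7%, beside 24.9%). After median ratio scaling the counts were 16 higher and 11 lower, and so the balance of directions turned. Mitochondrial uptake had 3 of 12 higher and 1 lower. Mcu, the pore of the uniporter, rose from 8.69 ± 0.865 to 13.4 ± 1.07 FPKM (SD, n = 8 per group) and its inhibitory relative Mcub from 4.95 ± 1.67 to 12.3 ± 3.78, while Letm1 fell from 26.7 ± 1.98 to 21.6 ± 1.86. For Mcu (limma log2 fold change 0.57, SE 0.08, adjusted p = 9.17e-05) all Ang II libraries lay above all saline libraries. Of 24 store proteins 4 were higher and 5 lower. Calumenin (Calu), a calcium-binding protein of the secretory pathway, rose from 333 ± 108 to 752 ± 121 FPKM (limma log2 fold change 1.24, SE 0.19, adjusted p = 0.000157) and reticulocalbin (Rcn1) from 24.8 ± 7.31 to 48.5 ± 5.88 (limma log2 fold change 0.99, SE 0.16, adjusted p = 0.000178), whereas Mrvi1, which ties IP3 receptors to cGMP kinase, fell from 167 ± 21.3 to 123 ± 25.3.

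Genes of Gq and phospholipase C had 0 of 14 higher and 4 lower, with Plcg1 (limma log2 fold change -0.74, SE 0.16, adjusted p = 0.00197) and Plce1 (limma log2 fold change -0.56, SE 0.15, adjusted p = 0.00741) among the latter. Of 17 calmodulin targets and binders 1 was higher, the phosphodiesterase Pde1b (2.79 ± 0.712 to 4.04 ± 0.917 FPKM), and 5 were lower. Pcp4l1, a small relative of a calmodulin-binding peptide, fell from 140 ± 36.0 to 54.1 ± 12.2 FPKM (limma log2 fold change -1.34, SE 0.18, adjusted p = 3.24e-05) and Camk2g, a calmodulin-dependent kinase, from 206 ± 26.7 to 131 ± 18.5 (limma log2 fold change -0.65, SE 0.11, adjusted p = 0.000236). Of 18 other channel genes and regulators 3 were higher and 6 lower. Rrad, a GTPase that inhibits L-type channels, fell from 174 ± 55.1 to 80.3 ± 18.7 FPKM (limma log2 fold change -1.09, SE 0.18, adjusted p = 0.000266), and its relative Rem1 rose from 2.18 ± 1.05 to 3.94 ± 0.833 (limma log2 fold change 0.70, SE 0.21, adjusted p = 0.0162). The adaptor Stac rose from 6.31 ± 1.28 to 9.40 ± 1.86 and the receptor channel P2rx6 fell from 2.95 ± 1.22 to 0.848 ± 0.240. By list, the medians of the log2 fold change were -0.04 for mitochondrial uptake, -0.09 for store proteins, -0.19 for Gq and phospholipase C, -0.03 for calmodulin targets and -0.20 for other channels, beside -0.12 for all genes.

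Of the 31 calcium genes under the filter, Trpc2, Trpc5os and Trpv5 were at 0 in all libraries and 28 had reads in some. In the fit without a filter 1 of these was higher (Casq2) and 1 lower. The lower one, Cacna2d2, had 70 reads over the saline libraries and 9 over the Ang II libraries (log2 fold change -0.16, SE 0.05, limma adjusted p = 0.0335). Atp2a1, the SERCA of fast skeletal muscle, had its highest values in Saline 2 (1.94 FPKM) and Ang II 5 (1.35 FPKM), the libraries with the highest skeletal muscle marker sums.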

How the data were processed

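RNA of 16 samples of aorta was sequenced as mRNA libraries (per the labels). The authors deposited 1 table of FPKM for 54532 genes, and the submitters' processing notes name GRCm38 (mm10). Not given in the sources used here are the aligner, the counter and the use of strand. FPKM values, multiplied by the mean transcript length in GENCODE M21, were whole multiples of 1 read for 95.8% to 96.3% of values above 0 (within 0.02 of a read), which gave the library totals and reads for 31297 of 31423 genes above 0.

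The main test was limma 3.58.1 (R 4.3.3) with its trend option on log2(FPKM + 1). Genes needed a mean of at least 0.5 FPKM. Tests were two-sided, p-values were adjusted by Benjamini-Hochberg, and the threshold was 0.05. This scale understates changes of low genes. Ratios of 2 genes, log2 with a pseudocount of 0.1, were tested by exact permutation of the 16 libraries (numpy 2.4.6). For the replicate block, the signs of the differences between same-numbered libraries were flipped instead. The tests were checked on simulated data. A few genes enter the fits and counts but are not reported here by name. The members, lists, ratios and alternatives were chosen with earlier results of these data known. Named with their range were called genes of at least 1 FPKM and an absolute log2 fold change of at least 0.5, plus a set of well-known members, and up to 2 genes per direction and list. Trpv2, Cacna1d and Casq2 fell outside this rule and were given with their range with their values known. Alternatives tried were another pseudocount (0.1), other filters (none, or 1 FPKM), quantile and median ratio scaling, a replicate block, limma sample weights, adipocyte, macrophage and skeletal muscle marker scores as covariates, a Wilcoxon rank-sum test, voom with TMM on recovered reads, and leaving out libraries. No 2 libraries of a group agreed within sampling noise (lowest chi-square per degree of freedom 20.3 in 56 pairs).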

Additional observations from a re-analysis of the deposited data

Results flagged for a closer look

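In each gene and group the highest or lowest of the 8 libraries was compared with the nearest other (Dixon's test). Of 84 groups 8 held a library far from the rest, or 9.52%. The 1 in 20 that this test gives by chance holds for independent, normally distributed values. These groups are FPKM values that share the same 16 libraries, so no excess over chance is read from this share. Saline 8 was the high one for Cacnb1 (45.4 FPKM, the other saline libraries reaching 24.3), for Trpm4 (77.1, the others up to 43.7) and for Itpr2 (20.1, the others up to 14.1). All of these genes fell with Ang II, and without Saline 2, Saline 7 and Saline 8 they remained past the threshold. Ang II 2 was high for Cacnb1 (13.8 FPKM, the others up to 8.83) and Cacnb3 (74.4, the others up to 52.5). Ang II 8 was high for Trpm7 (61.4 FPKM, the others up to 50.2) and Cacna1d (4.10, the others up to 2.92). Ang II 1 was low for Stim1 (17.9 FPKM, the others from 26.5).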

How the results depend on the processing

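Of the 42 tested calcium genes 4 were higher and 13 lower. The higher count was 2 with the Wilcoxon test, with each of the 3 marker scores as a covariate and without Saline 7 and Saline 8, with or without Saline 2, and 2 to 4 over the 16 analyses that left out 1 library (Ang II 3, 4, 5, 6 or 7, or Saline 2, 7 or 8 gave 2). The genes lost were Piezo1 and Atp2c1. The lower count was 8 with the macrophage score, after median ratio scaling and with voom, and 10 to 17 when 1 library was left out. It was 19 with sample weights, 18 without Saline 2, Saline 7 and Saline 8, and 16 without Saline 7 and Saline 8. Over all genes the lower counts in these last 3 settings were 5050, 3946 and 3988. Of the 85 pathway genes 6 were higher with the adipocyte score and 7 with the macrophage score (9 to 11 without 1 library), and 10 were lower with the macrophage score, 11 after median ratio scaling and with voom and 12 after quantile normalization (17 to 22 without 1 library). In these 3 rescalings 16, 16 and 15 were higher, so that more were higher than lower. Over all genes, 811 were higher and 1966 lower with the adipocyte score, 841 and 2237 with the macrophage score, 2236 and 2114 after median ratio scaling, 2270 and 2374 after quantile normalization, and 2300 and 1982 with voom (1177 to 1535 and 3235 to 3894 without 1 library). The number of ratios past the threshold was 10 to 14 when 1 library was left out. The cause of these shifts was not tested. The replicate numbers are only numbers (correlations of same-numbered deviations from -0.25 to 0.39, 5 of 8 over 0.1, 2 of 8 saline libraries best with their own number). With the replicate block 3 calcium genes were higher and 12 lower, and 11 ratios passed.

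The sign changes below did not pass the threshold either way. Without Saline 2, Saline 7 and Saline 8 the values were -0.06 for Slc8a1, -0.02 for Trpm7, -0.18 for Casq1, -0.11 for Ryr2, -0.09 for Itpr3, -0.15 for Stim2, -0.02 for Slc8a3, -0.04 for Trpc1, 0.18 for Itpr2/Itpr1 and -0.13 for Cacna2d1/Cacna1c. Without Saline 7 and Saline 8 they were -0.06 for Piezo2, -0.02 for Trpm7, -0.05 for Casq1, -0.08 for Ryr2, -0.04 for Stim2, -0.07 for Trpc1, 0.08 for Itpr2/Itpr1 and -0.03 for Cacna2d1/Cacna1c. With sample weights they were -0.05 for Piezo2, -0.24 for Casq1, -0.08 for Ryr2, -0.07 for Stim2, -0.04 for Slc8a3, 0.03 for Cacna1a and -0.02 for Trpc1. With the adipocyte score they were -0.06 for Casq1, -0.19 for Itpr3, -0.10 for Stim2 and -0.02 for Trpc1, with the macrophage score -0.06 for Piezo2 and 0.05 for Cacna1a, and with the skeletal muscle score -0.02 for Casq1. Quantile normalization gave 0.05 for Trpc4ap and 0.03 for Cacna1a, voom 0.00 and 0.10, and median ratio scaling 0.07 for Cacna1a. Leaving out 1 library gave -0.12 to 0.06 for Cacna1a, -0.07 to 0.14 for Cacnb3, -0.08 to 0.13 for Casq1, -0.01 to 0.24 for Ryr2, -0.02 to 0.09 for Trpc1, -0.06 to 0.10 for Cacna2d1/Cacna1c and -0.18 to 0.05 for Orai3/Orai1. Depth limits Pln, Casq2 and the other genes with few reads.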
